A study of Homo sapiens with 8 samples.

Results

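The regions described here are the stretches of the genome that lay inside H3K27me3 peaks of both libraries from AC220-treated cells and of neither library from DMSO-treated cells. A stretch is an unbroken run of at least 500 bp with that coverage on chromosomes 1 to 22. There were 2436 such AC220-only stretches, of 437666 runs of at least 500 bp covered by any one set of libraries, which is 0.557%. The choice rests on the peak positions of all 4 libraries, so every difference between treatments at the stretches themselves is set by the rule and is given as a description, with no test. The cells were MOLM14, a line derived from human acute myeloid leukaemia that carries an internal tandem duplication of the receptor tyrosine kinase gene FLT3 and a KMT2A fusion. Cells received quizartinib (AC220), an inhibitor of that kinase, or the solvent DMSO, for 24 h, and all received Drosophila S2 cells before lysis as a reference. H3K27me3 was mapped by chromatin immunoprecipitation and sequencing in 2 libraries per treatment, numbered 1 and 2 in the labels and called set 1 and set 2 here. The labels do not say whether the libraries of a treatment are from different cultures, and only 1 cell line was used. Nor do they say that the DMSO and AC220 libraries of the same number were prepared together, so the pairing into sets is an assumption. The lists hold peak positions and scores within each library, so read depth is unknown, and a base outside a list is one without a called peak, not one without the mark.

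H3K27me3 is the trimethylated form of lysine 27 on histone H3. Polycomb repressive complex 2 (PRC2) writes it through its catalytic subunits EZH2 and EZH1, and the demethylases KDM6A and KDM6B remove it. The mark forms long domains over silent developmental genes, and in myeloid leukaemia it also lies over genes of differentiation. PRC2 binds its own product and spreads the mark outward from nucleation sites, so that domains have strong centres and weaker margins. A peak list draws a line through such margins, and a domain can be listed as several peaks with gaps between them. For that reason each stretch was placed relative to intervals covered in all 4 libraries, called shared intervals here. A stretch with a shared interval within 5 kb on each side was classed as a gap, one with a shared interval within 5 kb on 1 side as an edge, and one with none within 5 kb as isolated.

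The lists differed in length by set more than by treatment. On the autosomes DMSO 1 covered 231 Mb, AC220 1 covered 191 Mb, DMSO 2 covered 586 Mb and AC220 2 covered 494 Mb. An AC220-only stretch had to lie in a peak of AC220 1, the shortest list, and outside the peaks of DMSO 2, the longest list. The stretches were therefore set beside those of 2 crossed pairs, each made of a DMSO library and the AC220 library of the other set. A base covered only by DMSO 2 and AC220 1 was gained with AC220 in set 1 and lost in set 2. A base covered only by DMSO 1 and AC220 2 was lost in set 1 and gained in set 2. The crossed pairs thus hold the places where the sets went in opposite directions.

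Few of the bases gained with AC220 in one set were also gained in the other. In set 1, 61.5 Mb were covered with AC220 and not with DMSO, and in set 2, 67.1 Mb. The bases common to both, at any length, came to 3.47 Mb, which is 5.64% of the gain in set 1 and 5.17% of that in set 2. Of the gain in set 1, 79.9% lay in peaks of both set 2 lists, where DMSO 2 was covered as well, and 9.19% lay in DMSO 2 and not in AC220 2, the opposite direction. Of the gain in set 2, 86.3% lay in no list of set 1, and 6.97% went the opposite way in set 1. Bases that differed between treatments in both sets totalled 25.5 Mb. Of these, 13.6% were AC220-only, 45.8% were DMSO-only (covered in both DMSO lists and in neither AC220 list), and 40.6% went in opposite directions. AC220-only bases made up 1.92% of the 180 Mb covered in both AC220 lists, and DMSO-only bases made up 5.32% of those covered in both DMSO lists.

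As deposited, the lists gave fewer AC220-only stretches than stretches of either crossed pair. There were 3404 of DMSO 1 with AC220 2 (0.778% of runs) and 4161 of DMSO 2 with AC220 1 (0.951%), so the AC220-only number was 0.644 times their mean. DMSO-only stretches numbered 9284 (2.12%), which is 3.81 times the AC220-only number. This order changed when the weakest peaks were dropped to match the lengths of lists, a step that alters length and peak strength together. It did not change when peaks with a -log10 q under 2 were dropped from every list. That left 219 AC220-only, 438 and 533 crossed and 1508 DMSO-only stretches. Shortening only the DMSO lists can add AC220-only bases but cannot remove them. When the weakest peaks of each DMSO list were dropped until it was as long as the AC220 list of its set, there were 5468 AC220-only stretches, 1.58 times the mean of the crossed pairs. With all lists at equal length there were 5540 AC220-only and 5258 DMSO-only stretches, against 5311 and 3924 for the crossed pairs. A ratio that depends less on list length multiplies the AC220-only by the DMSO-only number and divides by the product of the crossed numbers. It exceeds 1 when the sets went the same way more often than their separate totals give. It was 1.60 with the lists as deposited, 2.05 and 1.40 under the trimmings, and above 1 on 21 of 22 chromosomes. With 1 library left out it was 1.02 to 1.30, lowest without AC220 2. The set that lost a library then has no contrast of treatments, so these values no longer compare the directions of the sets. With 2 libraries per treatment no test of this ratio was made. The stretches of one library pair are not independent of each other.

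**Figure D1:**
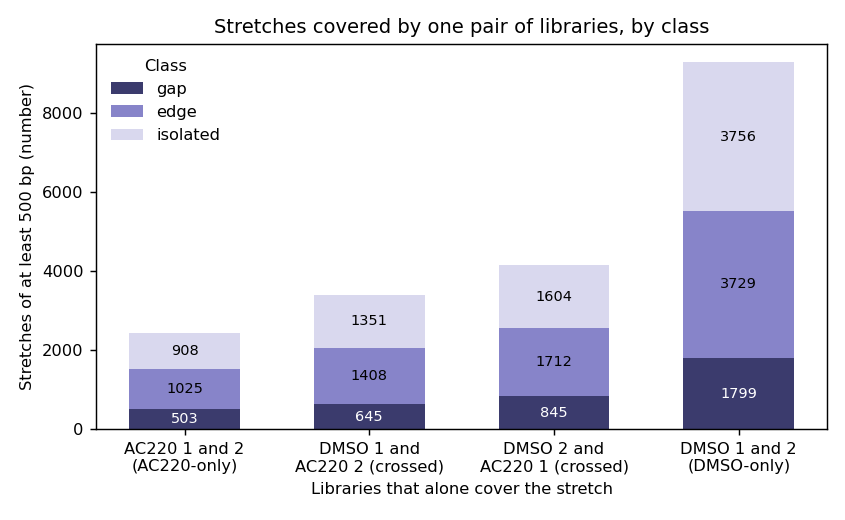
Number of stretches of at least 500 bp (vertical axis) covered by one pair of libraries alone (horizontal axis), divided into gap, edge and isolated stretches relative to intervals covered in all 4 libraries. The AC220-only bar, at 2436, is the lowest, below both crossed pairs (3404 and 4161), and the division into classes is much alike in all 4 bars.

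AC220-only stretches were short. Their median length was 709 bp, with quartiles of 586 and 896 bp and a longest of 2852 bp. Of all runs with this coverage at any length, 10277 in number, 23.7% reached 500 bp. Only 428 stretches (17.6%) were at least 1000 bp long and 16 at least 2000 bp. The medians of the crossed pairs were 742 and 731 bp, and that of DMSO-only stretches was 804 bp. The length threshold fell in a continuous range: 400 runs measured 450 to 499 bp and 377 measured 500 to 549 bp, with 10 runs at 499 bp just outside and 7 at 500 bp just inside. In sum the 2436 stretches held 1.93 Mb.

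By the 5 kb definition, more AC220-only stretches lay near a shared interval, of any length, than away from one. The median distance to the nearest shared interval was 3040 bp, 26.2% lay within 1 kb of one, and 12.97% lay more than 20 kb from any. By class, 503 were gaps (20.6%, exact binomial 95% interval 19.1 to 22.3), 1025 were edges (42.1%, 40.1 to 44.1) and 908 were isolated (37.3%, 35.35 to 39.2). These intervals cover counting error only. The crossed pairs had nearly the same division, with 18.9% and 20.3% gaps, 41.4% and 41.1% edges, and 39.7% and 38.5% isolated stretches. DMSO-only stretches were 19.4% gaps, 40.2% edges and 40.5% isolated. The median distances of the crossed pairs, 3080 and 2883 bp, lay on both sides of the AC220-only value. Gap stretches were somewhat longer, with a median of 734 bp and 118 of at least 1000 bp, against medians of 710 bp for edges and 689 bp for isolated stretches. At the 5 kb limit itself, 62 stretches had their nearest shared interval in the last 500 bp inside it and 46 in the first 500 bp beyond it. The division depended on the lists: with each DMSO list shortened as above 68.6% were isolated, and with equal lengths 88.9%, settings that also leave fewer peaks to be shared. The isolated stretches were also the majority when shared intervals had to be at least 500 bp long (50.7%), when isolation began at 2 kb (60.2%) and when only peaks with a -log10 q of at least 2 were used (68.0%).

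Beyond the stretches, coverage differed little between the treatments of a set, while the AC220 lists were the shorter ones. In the 5 kb on each side of an AC220-only stretch, AC220 1 was covered over 22.8% on average and DMSO 1 over 22.1%, and AC220 2 over 55.8% and DMSO 2 over 51.4%. At 10 kb to the left of the centre, 21.7% of stretches had a peak in AC220 1, 23.3% in DMSO 1, 49.8% in AC220 2 and 50.2% in DMSO 2. At 10 kb to the right the values were 21.8%, 23.2%, 48.9% and 51.5% in the same order. Averaged over all stretches, these values exceed the share of the autosomes that each list covered, which was 6.64% in AC220 1, 8.02% in DMSO 1, 17.15% in AC220 2 and 20.35% in DMSO 2. The AC220 to DMSO ratio of these autosome shares was 0.829 in set 1 and 0.843 in set 2. In the flanks the ratio was 1.03 and 1.09. At 10 kb it was 0.931 and 0.993 to the left and 0.938 and 0.949 to the right. Relative to list length AC220 coverage was thus still higher around the stretches. The same was true of a crossed pair in the set where it was gained. Around stretches of DMSO 1 with AC220 2, AC220 2 was covered over 54.2% of the flanks and DMSO 2 over 53.0%. In set 1, where that pair was lost, AC220 1 was covered over 18.7% and DMSO 1 over 24.9%. The flanks include the rest of the AC220 peaks that hold a stretch. The classes of AC220-only stretches differed widely. Around gap stretches the flanks were covered over 45.9% in AC220 1, 46.5% in DMSO 1, 81.5% in AC220 2 and 76.8% in DMSO 2. Around isolated stretches these values were 7.36%, 6.16%, 37.0% and 32.8%. For set 1 these are near the autosome shares, with DMSO 1 below its own, and for set 2 they are above them.

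**Figure D2:**
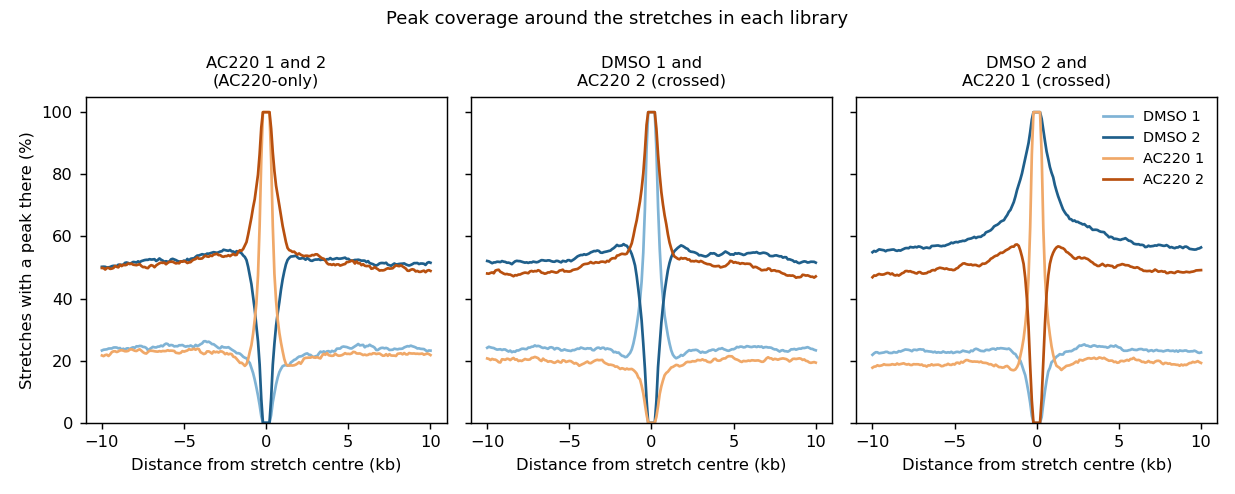
Percentage of stretches with a deposited peak (vertical axis) at each distance in kb from the stretch centre (horizontal axis), for each library, around AC220-only stretches and around stretches of the 2 crossed pairs. At the centre the values are 100 or 0 by the rule. Around AC220-only stretches the AC220 and DMSO curves of one set meet within about 2 kb. There AC220 2 stands at 54.35% and DMSO 2 at 55.1% to the left. Around stretches of DMSO 1 with AC220 2 these curves are also close there, at 53.9% and 56.9%. Around stretches of DMSO 2 with AC220 1 the DMSO 2 curve remains above that of AC220 2, at 65.2% against 55.0%.

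The boundary of DMSO 2 ran along many of the stretches. Of the 2436, 1290 (53.0%) abutted a DMSO 2 peak with no base between, and 3 in 4 lay within 408 bp of one. The nearest DMSO 1 peak was farther, at a median of 1089 bp, and 421 stretches (17.3%) abutted one. The interruption of the DMSO 2 list that held a stretch had a median width of 2974 bp, and that of the DMSO 1 list 9526 bp. Of the 4872 ends of stretches, 49.1% were ends of an AC220 1 peak, 27.7% were boundaries of a DMSO 2 peak, 14.3% ends of an AC220 2 peak and 8.81% boundaries of a DMSO 1 peak. The crossed pairs were built alike: the excluded list of set 2 was abutted by 58.0% of stretches of DMSO 1 with AC220 2 and by 59.7% of those of DMSO 2 with AC220 1. A smaller group stood clear of the DMSO lists. At least 1 kb separated 264 stretches (10.8%) from every DMSO peak and at least 5 kb separated 50 (2.05%), against 354 (10.4%) and 74 (2.17%) for DMSO 1 with AC220 2. For DMSO 2 with AC220 1 these were 337 (8.10%) and 61 (1.47%).

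The AC220 peaks that held the stretches were weak in AC220 1, and in both AC220 libraries they were wider than the list median. In AC220 1 the 2417 holding peaks had a median fold enrichment of 2.61, against 2.675 for the whole list, and a median -log10 q of 1.16, against 1.32; fold and q are the authors' values for each peak within its library. Their median rank by q was at percentile 33.0 of that list. A -log10 q of at least 2 was reached by 4.34% of them, against 13.2% of the list. In AC220 2 the 2373 holding peaks ranked at percentile 65.1 by q and had a median width of 4643 bp, against 1625 bp for the list. In AC220 1 the median widths were 1213 and 998 bp. A peak must measure at least 500 bp to hold a stretch, so the rule itself favours wide peaks. The crossed pairs had the same features: the AC220 1 peaks of DMSO 2 with AC220 1 also ranked at percentile 33.0, and 4.16% reached that q, and the AC220 2 peaks of DMSO 1 with AC220 2 ranked at percentile 62.1 and had a median width of 4285 bp. The stretch filled a median of 64.7% of its AC220 1 peak and 15.9% of its AC220 2 peak. It was a whole AC220 1 peak in 523 cases (21.5%) and a whole AC220 2 peak in 42. For 285 stretches (11.7%) both holding peaks were free of any DMSO-covered base, and 214 of these were isolated. Such stretches made up 11.3% and 6.03% of the crossed pairs. When peaks with a -log10 q under 2 were left out of every list, 219 AC220-only stretches were found, 0.451 times the mean of the crossed pairs (438 and 533).

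Named stretches were chosen by length, by class and by fold, and each is given in GRCh37 positions counting from 1. No gene annotation of this build was used, so the genes inside each stretch were not determined, and a gene is named only as one that textbook maps place in the same band. The longest stretch measured 2852 bp and lay in 10q11.21 (chromosome 10, 43730882 to 43733733), the band of the receptor tyrosine kinase gene RET. It was a gap, with shared intervals 812 bp to its left and 164 bp to its right. A single AC220 2 peak of 28.4 kb, with a fold enrichment of 2.60, bridged it, and an AC220 1 peak of 5.39 kb, with a fold of 2.73, covered it. DMSO 1 was interrupted over 3190 bp there and DMSO 2 over 3698 bp. In the flanks DMSO 1 was covered over 71.7%, AC220 1 over 67.2%, DMSO 2 over 84.8% and AC220 2 over 100%. AC220 1 was also interrupted, from -2238 to -1426 bp relative to the stretch centre, directly beside the stretch. Only AC220 2 ran unbroken across this place, so the lists differed in where they broke within a domain marked in all 4 libraries.

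The second, of 2850 bp, lay in 11q23.2 (chromosome 11, 112599906 to 112602755), the band of the neural adhesion gene NCAM1. Its AC220 1 peak had a fold of 2.52 and a -log10 q of 1.09, at percentile 23.7 of its list, and its AC220 2 peak spanned 26.1 kb with a fold of 2.41. It abutted peaks of DMSO 1 and of DMSO 2. Further gaps among the longest lay in 11q23.3 (chromosome 11, 117365910 to 117368536, 2627 bp), the band of KMT2A, and in 10q24.1 (chromosome 10, 97191774 to 97193920, 2147 bp). At 11q23.3 the AC220 1 peak, of 2643 bp, held no DMSO-covered base, and 99.4% of it lay in the stretch. At 10q24.1 the AC220 2 peak ran for 77.0 kb and was covered by DMSO peaks over 95.2%.

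**Figure D3:**
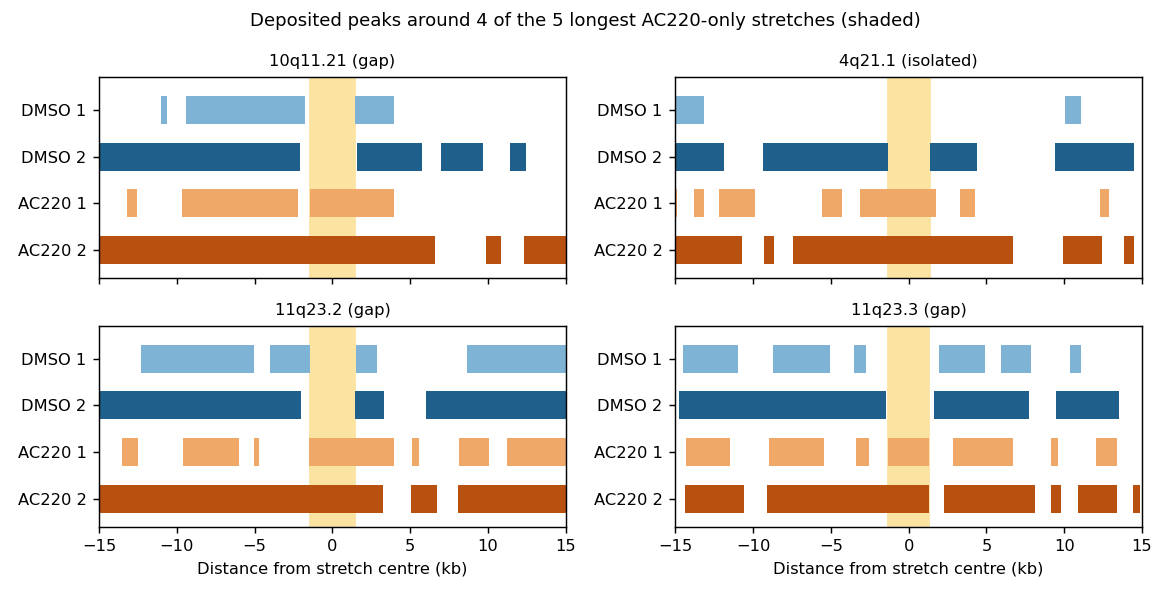
Deposited peaks of each library (rows) around 4 of the 5 longest AC220-only stretches (shaded), with distance from the stretch centre in kb on the horizontal axis and the band and class above each panel. In all 4 panels peaks of both DMSO libraries lie within 15 kb and on both sides of the shaded stretch.

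The longest edge stretch, in 8q24.3 (chromosome 8, 143491682 to 143494164, 2483 bp), had its nearest shared interval 3405 bp to the right and none for 190437 bp to the left. Its peaks had folds of 2.75 in AC220 1 and 2.39 in AC220 2. That in 2p21 (chromosome 2, 47023558 to 47026001, 2444 bp) filled the whole of a DMSO 2 interruption. In 22q11.22 (chromosome 22, 22429754 to 22432073, 2320 bp), the band of the immunoglobulin lambda locus, the stretch was a whole AC220 2 peak, with a fold of 2.02 and a -log10 q of 1.27. The nearest DMSO 1 peak was 3574 bp away and the nearest DMSO 2 peak 745 bp. Edges of 2133 bp in 20q11.21 (chromosome 20, 30498958 to 30501090) and 2097 bp in 10p15.3 (chromosome 10, 1652163 to 1654259) filled interruptions of the DMSO 2 list exactly.

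The longest isolated stretch, of 2718 bp in 4q21.1 (chromosome 4, 78169965 to 78172682), was 11805 bp from a shared interval and 8713 bp from a DMSO 1 peak. It too filled an interruption of DMSO 2 exactly, and its flanks were covered over 80.3% in DMSO 2 and 0% in DMSO 1, against 100% in AC220 2 and 43.7% in AC220 1. In 14q23.1 (chromosome 14, 58517240 to 58519736, 2497 bp) the nearest shared interval was 7935 bp away, and an interruption of DMSO 2 was again filled exactly. In 5q31.2 (chromosome 5, 137222803 to 137225013, 2211 bp), the band of EGR1, an immediate early transcription factor gene of the ERK pathway, the stretch was a whole AC220 2 peak with a fold of 2.08. The nearest DMSO 1 peak was 12 bp away and the nearest DMSO 2 peak 353 bp. Its surroundings were sparse, with flanks covered over 12.7% in AC220 1, 11.7% in AC220 2, 3.07% in DMSO 1 and 3.95% in DMSO 2. The other isolated stretches named lay in 8q22.2 (chromosome 8, 101479129 to 101481041, 1913 bp) and 21q22.2 (chromosome 21, 40860124 to 40862015, 1892 bp). The last was the farthest of the 5 from a DMSO 1 peak after 4q21.1, at 7744 bp, and abutted a DMSO 2 peak.

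The stretches with the strongest holding peaks were short pieces of large peaks. Ranked by the lower of the folds in AC220 1 and AC220 2, the first lay in 20p11.23 (chromosome 20, 20340968 to 20341514, 547 bp), with folds of 4.01 and 3.96. Those in 6p21.1 (chromosome 6, 44253997 to 44254986, 990 bp; 3.598 and 3.57) and 19p13.3 (chromosome 19, 3032279 to 3033100, 822 bp; 4.94 and 3.54) followed. The AC220 1 peaks measured 7.22, 12.8 and 9.70 kb, and DMSO peaks covered 92.4%, 92.3% and 91.5% of them. At 20p11.23 and 19p13.3 the stretch abutted a DMSO 2 peak on 1 side, and the DMSO 2 list then held no peak for 76370 and 44257 bp. The stretches at these bands were thus extensions of 547 and 822 bp beyond the end of a DMSO 2 peak.

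AC220-only stretches were spread over the autosomes, with 8.455 per 10 Mb overall and from 2.69 per 10 Mb on chromosome 13 (31 stretches) to 19.0 on chromosome 20 (120). On 17 chromosomes they were fewer than the stretches of either crossed pair and on 3 they were not outside the range of the crossed pairs. On chromosome 22 there were 80, against 77 of DMSO 1 with AC220 2 and 57 of DMSO 2 with AC220 1, and on chromosome 19 there were 73, against 69 and 63. These chromosomes alone held more than both crossed pairs. Chromosome 22 was also the only one with more AC220-only than DMSO-only stretches (80 and 69). At the other extreme stood chromosome 13, with 31 against 329, and chromosome 6, with 94 against 747. As a share of the bases covered in both AC220 lists, AC220-only bases (any length) came to 4.41% on chromosome 22, 3.25% on chromosome 21 and 3.17% on chromosomes 16 and 20, and to 1.16% on chromosomes 6 and 13. Chromosomes differ in gene density and base composition, and their values within a library are not independent replicates.

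**Figure D4:**
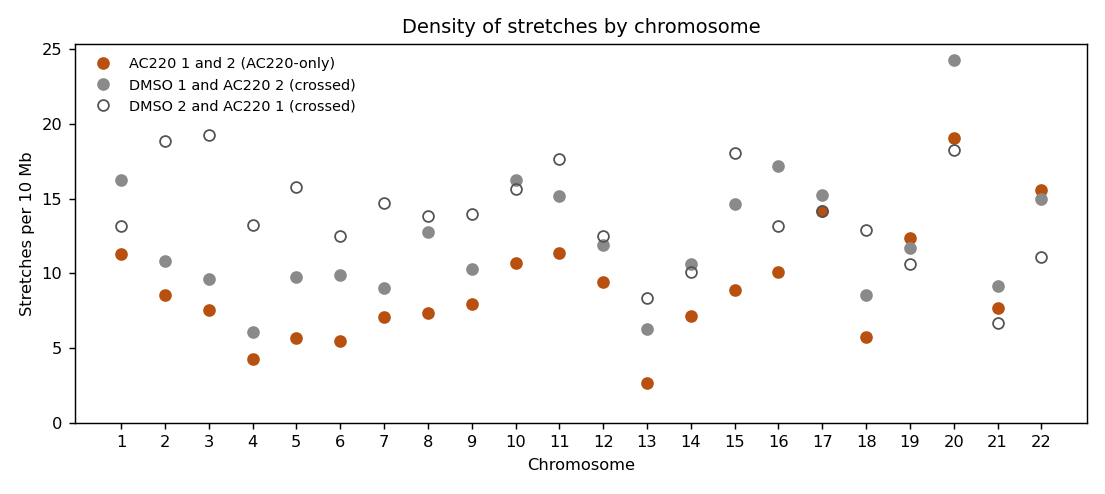
Stretches per 10 Mb (vertical axis) on each autosome (horizontal axis) for AC220-only stretches and both crossed pairs, 1 point per chromosome and pair. AC220-only points are the lowest on most chromosomes and the highest on chromosomes 19 and 22.

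By Giemsa stain, which follows base composition and gene density, AC220-only stretches lay in light bands more often than the stretches of the other pairs. Unstained bands, the gene-rich class, held 1510 of them (62.0%, exact binomial 95% interval 60.0 to 63.9), against 57.3% (55.6 to 59.0) for DMSO 1 with AC220 2 and 50.1% (48.6 to 51.7) for DMSO 2 with AC220 1. Of DMSO-only stretches 46.4% lay there. The darkest bands held 81 AC220-only stretches (3.33%), against 5.17% and 8.48% for the crossed pairs and 11.5% of DMSO-only stretches. These intervals cover counting error and treat neighbouring stretches as separate, and the difference was not tested over libraries. The kinds with the higher unstained shares are those gained in set 2, where AC220 2 was covered and DMSO 2 was not. The shared intervals were themselves concentrated there, with 58.6% of their bases in unstained bands and 4.95% in the darkest. Per base covered in both AC220 lists, 2.025% was AC220-only in unstained bands and 1.36% in the darkest, whereas per base covered in both DMSO lists 4.44% and 9.57% were DMSO-only. The order of the 4 kinds by unstained share was the same with each DMSO list trimmed (59.7% AC220-only, 55.9% and 50.1% crossed, 48.2% DMSO-only) and with equal lengths (62.8%, 58.4%, 53.0% and 50.4%). Without AC220 1 the AC220-only share was 52.4%, below the 59.0% of DMSO 1 with AC220 2. A condition of the rule is then dropped, which gave 47359 AC220-only stretches, so this order is of a different set of stretches. Leaving out DMSO 1, DMSO 2 or AC220 2 kept the AC220-only share highest (63.2%, 56.3% and 58.4%), also under a changed rule.

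**Figure D5:**
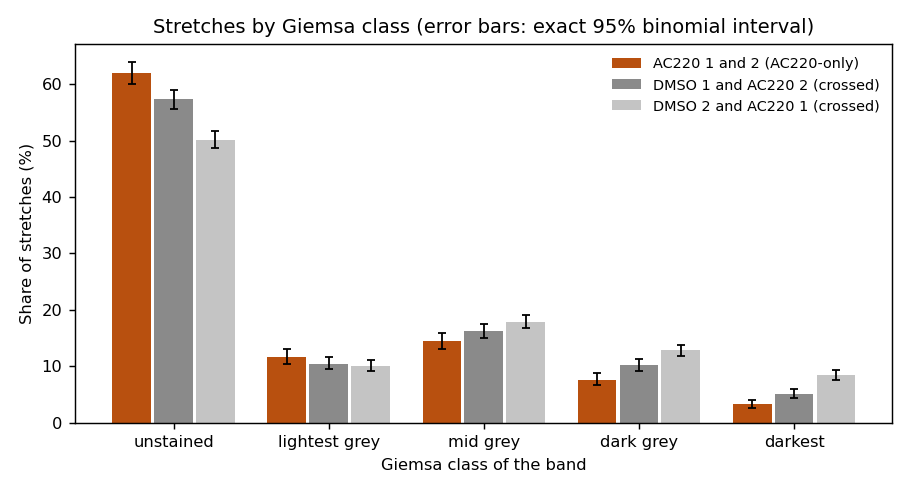
Share of stretches in percent (vertical axis) in bands of each Giemsa class from unstained to darkest (horizontal axis), for AC220-only stretches and both crossed pairs, with exact binomial 95% intervals as error bars. AC220-only stretches have the highest share in unstained bands (62.0%) and the lowest in the darkest (3.33%).

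A like order held for the ends of chromosomes. Of AC220-only stretches 314 (12.9%, 11.6 to 14.3) lay within 5 Mb of an end, against 11.2% (10.2 to 12.3) for DMSO 1 with AC220 2, 6.13% (5.42 to 6.90) for DMSO 2 with AC220 1 and 5.62% of DMSO-only stretches. Of the bases of shared intervals 10.6% lay there. Without AC220 1 the AC220-only share was 9.60%, below the 12.4% of DMSO 1 with AC220 2, and with each DMSO list trimmed it was 11.05%, below 11.9%. The first place of the AC220-only stretches was lost under both settings. The former drops a condition of the rule and so counts a different set of stretches.

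Most AC220-only stretches had no other within 10 kb, but they were unevenly spaced. The median distance to the next one was 148 kb. At 8.455 per 10 Mb, evenly spaced stretches would lie farther apart than that. Another lay within 10 kb of 236 (9.69%), against 10.9% and 9.52% for the crossed pairs and 23.5% of DMSO-only stretches. Within 50 kb the shares were 31.2%, 35.1%, 33.7% and 62.1% in the same order. The other kinds were all more numerous, and no comparison with random placement was made. They occurred in 580 of 811 autosomal bands. In 100 bands they outnumbered both crossed pairs, and in 316 they were fewer than either. The band with most was 8q24.3, with 25 stretches against 15 and 8 for the crossed pairs and 16 DMSO-only. There DMSO 1 was covered over 20.7% and AC220 1 over 18.45%, and DMSO 2 over 30.3% and AC220 2 over 31.95%. Next came 1q32.1 and 1p34.3 with 22 each. In 1q32.1, the band of the p53 regulator gene MDM4, the crossed pairs had 12 and 17, and in 1p34.3, the band of the granulocyte growth factor receptor gene CSF3R, they had 35 and 12. In 9q34.3, the band of NOTCH1, there were 20, with 20 and 2 for the crossed pairs.

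A further 4 bands held 18 stretches each. In 10q22.1, the band of the cytotoxic effector gene PRF1, the crossed pairs had 14 and 9 and DMSO-only stretches numbered 7. Its covered share was 18.4% in DMSO 1, 18.75% in AC220 1, 30.8% in DMSO 2 and 32.7% in AC220 2, higher with AC220 in both sets. In 11q23.3, the band of KMT2A, the crossed pairs had 26 and 29 and DMSO-only stretches numbered 36, so AC220-only stretches were the fewest of the 4 kinds. In 2q37.3, the band of the immune checkpoint receptor gene PDCD1, the crossed pairs had 27 and 15, and in 11p15.4, the band of the beta-globin genes, they had 15 and 16. Among these 8 bands AC220-only stretches outnumbered both crossed pairs in 8q24.3, 1q32.1, 10q22.1 and 11p15.4. DMSO-only stretches numbered 21 in 11p15.4, 30 in 1p34.3 and 19 in 2q37.3, above the AC220-only numbers. In 1q32.1 and 9q34.3 they numbered 19 and 11, below the AC220-only numbers. The bands were chosen for their AC220-only number, which rests on the same peak positions as the covered shares. The excess over the crossed pairs and the covered shares are therefore descriptions.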

How the data were processed

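H3K27me3 was analysed in 4 immunoprecipitated libraries of MOLM14 cells; the 4 inputs were not used. BWA 0.7.10-r789 and MACS2 2.1 are named, without roles, in the submitters' processing notes. The authors deposited broad peaks called for each library separately, with positions in bp. The deposited fold enrichment is a ratio to background within that library. The authors' p-value and q-value are given as -log10, and the deposited score is derived from q and was not used. Whether inputs or Drosophila reads entered peak calling is not stated by the labels.

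No build is named in the sources used here; peak ends fitted GRCh37 chromosome lengths, and the table of genes at hand is on another build, so planned results on promoters and gene lists were not run and no sequence was read. Bands came from circlize 0.4.16 in R 4.3.3. Runs of bases covered by one set of libraries were found in pandas 2.3.3 and numpy 2.4.6 (Python 3.11.15), tested on simulated data, and checked against bedtools 2.31.1. Exact binomial (Clopper-Pearson) intervals used scipy 1.17.1 and figures matplotlib 3.10.9. Depth is unknown. The stretches named were the 10 longest, the 5 longest of each class, the 3 with the highest lower fold, and the 5 bands with most stretches (8 with ties); 1 of the 10 longest is not reported here. No p-value was computed, because the same contrast chose the stretches. Members and lists were chosen with earlier results of these data known, and the product ratio and the counts near chromosome ends were added after the data were seen. Alternatives changed the minimum length, the q threshold, list lengths, the joining of peaks, the class distance and the libraries.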

Additional observations from a re-analysis of the deposited data

How the results depend on the processing

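No paired analysis was possible because no result comes from a test; values within each set are given in the report as descriptions. The promoter results and their alternatives were not run. The number of AC220-only stretches was 6036 at a minimum length of 200 bp, 428 at 1000 bp, 219 with only peaks of -log10 q of at least 2, 5468 with each DMSO list cut to the length of the AC220 list in its set and 5540 with the 4 lists cut to 1 length. Leaving out 1 library gave 3255 to 47359 (41359 without DMSO 2, 47359 without AC220 1 and 5351 without AC220 2), since one condition of the rule is then dropped. The ratio to the mean of the crossed pairs was 0.451 with the q threshold and 0.718 with peaks less than 1 kb apart joined. Joining below 1 kb left DMSO 2 unchanged, since its peaks were at least 1113 bp apart, and could lengthen only the other lists. With peaks less than 2 kb apart joined, a setting chosen after seeing the data, the ratio was 0.789. The ratio reversed to 1.58 and 1.20 under the 2 trimmings and to 1.17 without DMSO 2. Leaving out 1 library gave 0.120 to 1.17. The cause was not tested, and the trimmings change list length and peak strength together.

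The share in a gap was 17.3% at 200 bp, 27.6% at 1000 bp, 4.57% with the q threshold, 6.05% and 1.01% under the trimmings, and 14.8% with peaks less than 2 kb apart joined. It was 6.28% and 37.8% with isolation set at 2 kb and 10 kb, and 11.9% with shared intervals of at least 500 bp. The share at an edge was 44.2% at 1000 bp, 27.4% with the q threshold, 25.4% and 10.1% under the trimmings, and 44.2% with peaks less than 2 kb apart joined. It was 33.5% and 39.0% with isolation set at 2 kb and 10 kb, and 37.4% with the longer shared intervals. The share isolated was 39.7% at 200 bp, 28.3% at 1000 bp, 68.0% with the q threshold, 68.6% and 88.9% under the trimmings, and 41.0% with peaks less than 2 kb apart joined. It was 60.2% and 23.2% with isolation set at 2 kb and 10 kb, and 50.7% with the longer shared intervals. Leaving out 1 library gave 15.4% to 44.3% in a gap, 37.8% to 46.2% at an edge and 14.1% to 46.8% isolated. The share in unstained bands ranged from 52.4% to 71.7% over these settings, and the product ratio from 1.02 to 2.05. The lowest value of each came with 1 library left out, where the rule itself changes.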

Other observations

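Chromosome X was outside the rule. There 9 stretches of at least 500 bp were covered in both AC220 lists alone, against 11 of DMSO 1 with AC220 2, 30 of DMSO 2 with AC220 1 and 56 covered in both DMSO lists alone, beside 145 runs covered in all 4 libraries. The order of the 4 kinds was that of the autosomes.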
